A study of Mus musculus with 8 samples.

Results

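Antioxidant, glutathione and metallothionein genes encode the proteins that remove peroxides and superoxide, keep thiols reduced, conjugate reactive compounds and bind metals. The 37 genes of this group were chosen by name, as a list of the NRF2 pathway, the thioredoxin system, superoxide dismutases and catalase, glutathione peroxidases and transferases, and metallothioneins. A gene was measured where the array had a probe set annotated to that gene alone, and it was read from its brightest such probe set over all 8 arrays. This gave 34 members of 18193 genes measured in all. Prdx1, Prdx5 and Prdx6, which encode further peroxiredoxins, were not analysed here.

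Messenger RNA had been hybridised to short-oligonucleotide arrays that give 1 intensity per probe set. The 3 ES arrays held wild-type pluripotent cells of line V6.5, grown with leukemia-inhibiting factor in 15% serum and 2-mercaptoethanol, first on irradiated MEFs and then without feeders on gelatin. Wild-type neural precursor cells (NPC, 3 arrays) had been made from ES cells by 4 days as embryoid bodies and selection in ITSFn medium, and were kept in FGF2 and EGF2. Wild-type primary embryonic fibroblasts (MEF, 2 arrays) were grown in 10% serum. Medium and cell type changed together, so their parts in a difference cannot be told apart. The ES cells are a single line, no age or strain of the fibroblast embryos is given, and the labels do not state separate cultures for the arrays of a group. The p-values therefore reflect array-to-array spread alone, which may be technical. The 3 comparisons share arrays pairwise, and their values are given side by side without a measure of overlap.

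As background, the transcription factor NRF2, encoded by Nfe2l2, is held in the cytoplasm and marked for breakdown by KEAP1. Oxidants and electrophiles modify KEAP1, and NRF2 then enters the nucleus and induces genes for glutathione synthesis, thioredoxin reduction and quinone detoxification through antioxidant response elements. Metallothioneins are small cysteine-rich proteins that bind zinc and copper and are induced through metal response elements by the factor MTF1.

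Values are log2(intensity + 16) after quantile normalization, a scale whose floor is 4, so that differences of genes near the floor are understated. Levels of different genes are not compared, since probe sets differ in brightness. Calls required both a log2 difference of at least 1 (a fold of 2) and an adjusted p under 0.05 (limma, Benjamini-Hochberg over all genes). The MEF arrays were brightest as deposited, with a 2% trimmed mean of 232 on each against 111 to 153 on the other arrays. At the deposited scaling the median difference over all genes was 0.32 for MEF minus ES and 0.43 for MEF minus NPC, so calls involving MEF are read against other scalings below. Cell type markers followed the labels: the mean of 5 ES markers was 11.52 to 11.59 on ES arrays and at most 5.96 elsewhere, and that of 6 fibroblast markers was 11.63 and 11.68 on MEF arrays and at most 5.84 elsewhere. The mean of 5 neural precursor markers was 10.38 to 10.82 on NPC arrays and at most 7.36 elsewhere. NPC 1 stood apart within its group: 4.51% of all genes differed by at least 1 from the mean of NPC 2 and NPC 3, while this share was 0.22% to 1.12% for the other 7 arrays.

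**Figure D1:**
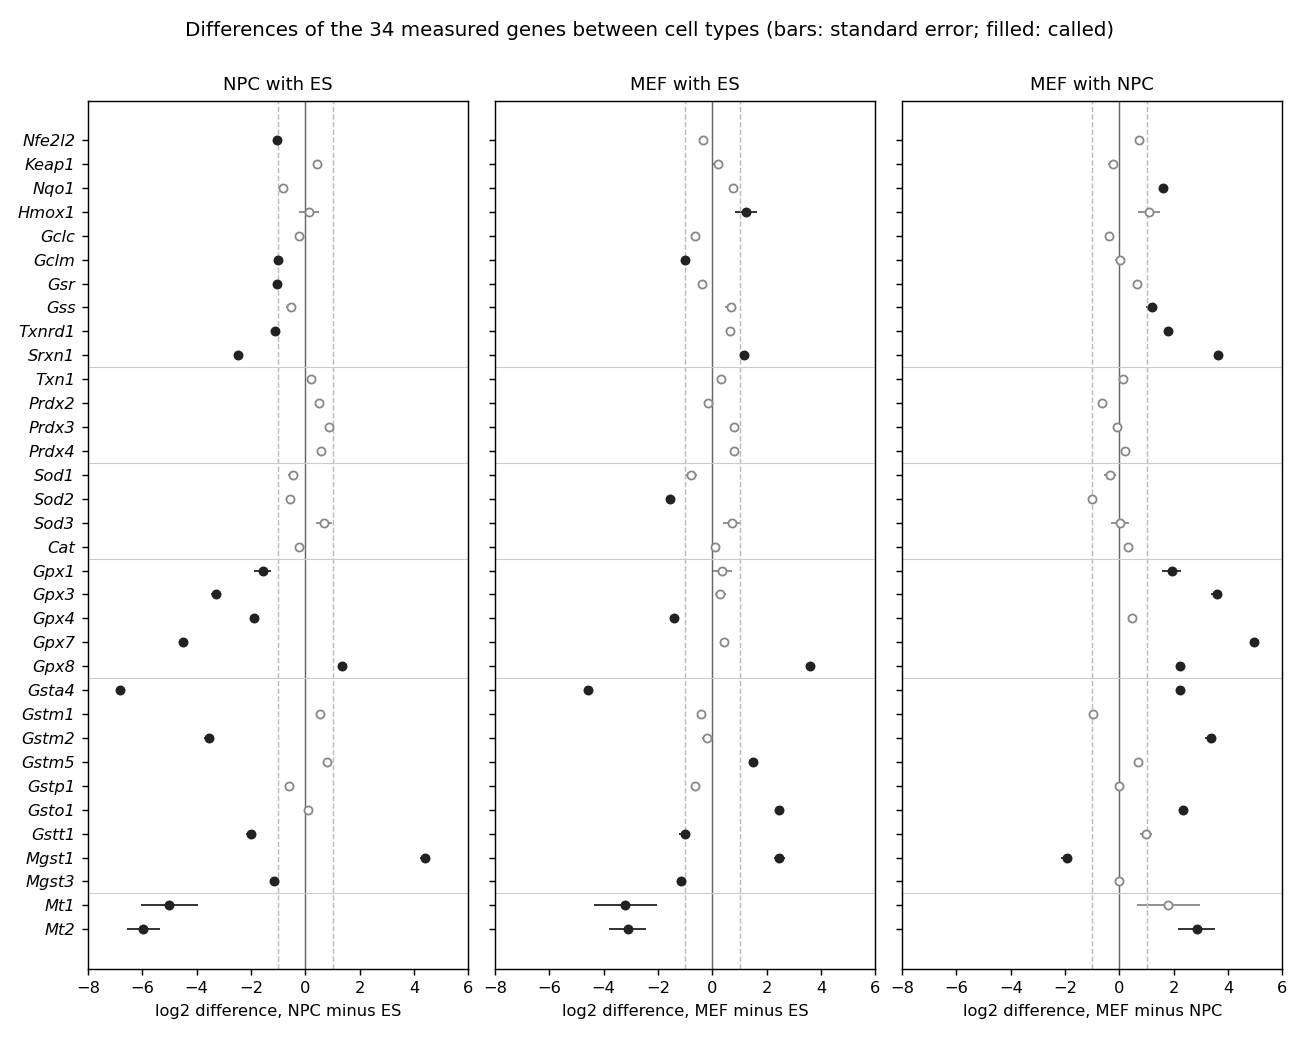
Log2 difference of each of the 34 genes (rows, ordered by role) in the 3 comparisons, with NPC minus ES, MEF minus ES and MEF minus NPC on the horizontal axes. Bars are standard errors, filled points are called, and dashed lines mark a difference of 1. Most filled points of the first panel lie left of 0, most of the third lie right of 0, and those of the middle panel lie on both sides.

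In NPC, most called members were below their ES level. Against ES cells, 15 of 34 members fell in NPC, led by Gsta4 (-6.83), Mt2 (-5.97) and Mt1 (-5.00), and 2 rose, Mgst1 (4.40) and Gpx8 (1.36). In all, 30 members had arrays that did not overlap between the groups (52.8% of all genes) and 27 had an adjusted p under 0.05 (46.9% of all genes). The 17 calls are 50% of the members, and 22.9% of all genes were called in the same comparison, 12.9% lower and 10.0% higher. The median difference of the members was -0.59, and that of all genes was -0.05. The counts of 2 higher and 15 lower were the same with median centring, at the deposited scaling and with trimmed mean scaling.

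In MEF, members lay on both sides of their ES level. Of 34 members, 6 rose, led by Gpx8 (3.57), Mgst1 (2.46) and Gsto1 (2.45), and 8 fell, led by Gsta4 (-4.59), Mt1 (-3.21) and Mt2 (-3.12). The arrays of 33 members did not overlap (67.8% of all genes), and 26 had an adjusted p under 0.05 (46.4% of all genes). The 14 calls are 41.2% of the members, and 25.0% of all genes were called, 12.2% higher and 12.8% lower. The median was 0.14 for the members and -0.04 for all genes. This balance depended on the scaling: 10 were higher and 5 lower with median centring, and 15 were higher and 2 lower at the deposited scaling. The calls over all genes moved the same way, with 48.9% of them higher under quantile normalization, 65.1% under median centring and 79.4% at the deposited scaling.

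Between MEF and NPC, nearly all called members were higher in MEF. The 12 higher ones were led by Gpx7 (4.94), Srxn1 (3.61) and Gpx3 (3.58), and Mgst1 alone was lower, at -1.94. The arrays of 26 members did not overlap (58.0% of all genes), and 23 had an adjusted p under 0.05 (39.3% of all genes). The 13 calls are 38.2% of the members, and 18.5% of all genes were called, 10.5% higher and 7.95% lower. The median was 0.66 for the members and -0.01 for all genes. At the deposited scaling 21 members were higher and 1 lower, and 87.6% of the calls over all genes were higher there, against 56.9% with quantile normalization.

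NPC held the lowest group mean in 17 of 34 members, or 50%, and in 33.2% of all genes. Under median centring, and at the deposited scaling too, this count was 21, and the share of all genes was 35.5% and 49.8%. MEF held the highest mean in 15 members, or 44.1%, and in 31.3% of all genes. This count ran from 13 with trimmed mean scaling (38.2%, against 27.3% of all genes) to 24 at the deposited scaling (70.6%, against 60.8%).

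Of the 10 genes of the NRF2 group, 5 fell in NPC from ES cells (Nfe2l2, Gclm, Gsr, Txnrd1 and Srxn1), or 50%, against 12.9% of all genes. In MEF, Hmox1 and Srxn1 rose and Gclm fell from ES cells, or 30% called, against 25.0% of all genes. Between MEF and NPC, 4 genes were higher in MEF, or 40%, against 10.5% of all genes. Srxn1, the sulfiredoxin that repairs over-oxidised peroxiredoxins, showed the widest range. It was at 8.26, 8.18 and 8.17 on ES arrays, at 5.59, 5.78 and 5.84 on NPC arrays, while MEF gave 9.38 and 9.33. No array overlapped between groups. Srxn1 fell 5.53-fold from ES cells to NPC (limma adjusted p = 1.87e-07) and was 12.2-fold higher in MEF than in NPC (adjusted p = 6.06e-08) and 2.21-fold higher in MEF than in ES cells (adjusted p = 4.62e-05). Its 3 further probe sets had the same directions.

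Txnrd1 encodes the cytosolic thioredoxin reductase, which passes electrons from NADPH to thioredoxin. It was at 11.52 to 11.61 on ES arrays, at 10.77, 10.22 and 10.35 on NPC arrays, while MEF gave 12.21 and 12.25. The order ES above NPC and below MEF was that of Srxn1. Txnrd1 fell 2.18-fold in NPC (limma adjusted p = 7.19e-05), with a call that ended without NPC 2, where the log2 difference was -0.997. In MEF it was 3.44-fold above NPC, and its log2 difference of 0.66 from ES cells was under the minimum, though 1.32 at the deposited scaling. With quantile normalization, the 2 further probe sets of Txnrd1 gave 1.24 and 1.32 for the difference between MEF and ES cells.

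Nqo1, a quinone reductase used widely as a readout of NRF2, was at 7.49 ± 0.06 (SD, n = 3) in ES cells, 6.66 ± 0.18 (n = 3) in NPC and 8.25 ± 0.17 (n = 2) in MEF. It was 3.01-fold higher in MEF than in NPC (limma adjusted p = 3.07e-05). Its differences from ES cells, -0.84 in NPC and 0.75 in MEF, did not reach the minimum, and the latter was 1.26 with median centring.

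Nfe2l2 itself was at 10.10, 10.11 and 10.05 on ES arrays, at 9.26, 8.94 and 8.95 on NPC arrays, while MEF gave 9.77 and 9.73. On this probe set the groups did not overlap, and NPC was lowest. The second probe set of Nfe2l2 had means of 5.78, 4.51 and 4.24 in ES cells, NPC and MEF, with MEF lowest. The uncalled difference of -0.34 between MEF and ES cells ran from -0.94 to 0.47 over the alternatives. Nfe2l2 fell 2.06-fold in NPC (limma adjusted p = 1.95e-05), a difference of -1.04 so close to the minimum that the call ended without NPC 2 (-0.98), without NPC 3 (-0.99) and with a pseudocount of 64 (-0.97). Keap1, its inhibitor, was at 7.56 ± 0.10 in ES cells, 7.999 ± 0.35 in NPC and 7.76 ± 0.06 in MEF, and it was called in no comparison.

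**Figure D2:**
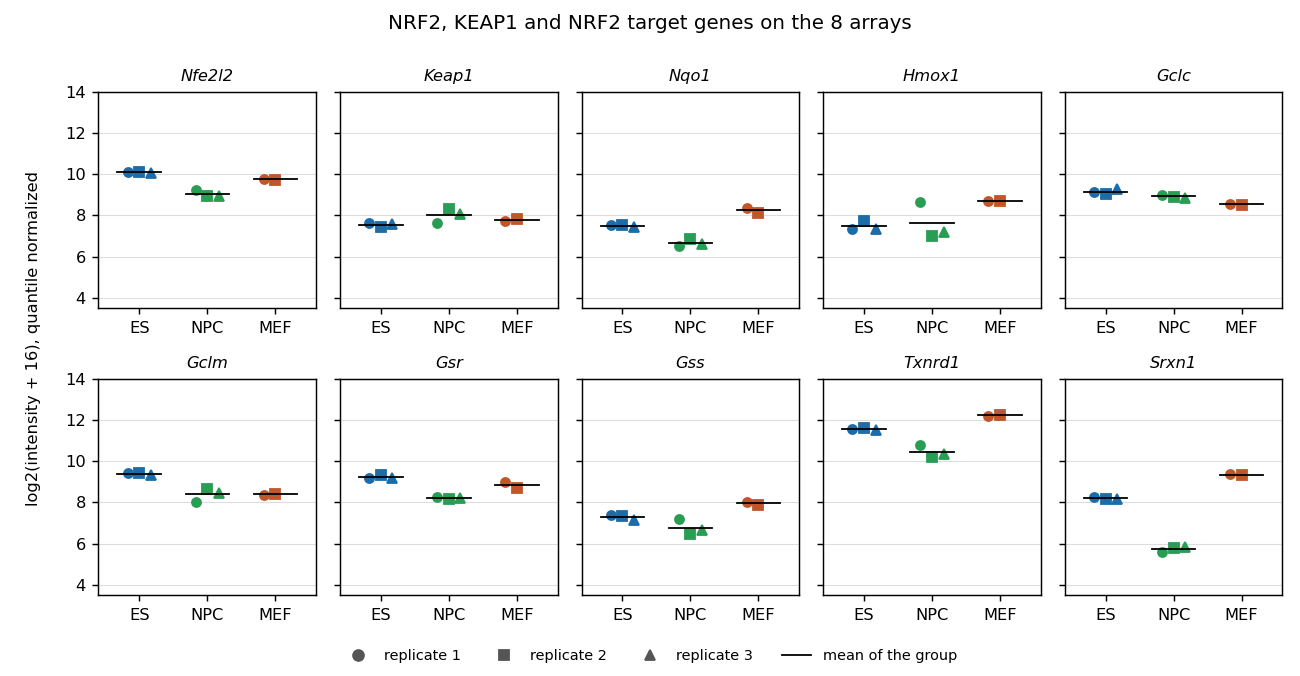
Log2(intensity + 16) of Nfe2l2, Keap1 and 8 NRF2 target genes on each array, by cell type. Each point is 1 array, with its shape giving the replicate number, and lines are group means. Srxn1, Txnrd1 and Nqo1 are lowest in NPC and highest in MEF, and 1 NPC array of Hmox1 lies level with MEF.

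Glutathione is made in 2 steps, by glutamate-cysteine ligase and by glutathione synthetase. Gclm, the modifier subunit of the ligase, was at 9.43, 9.45 and 9.33 on ES arrays, at 8.04, 8.66 and 8.48 on NPC arrays, while MEF gave 8.38 and 8.43. ES arrays were highest, and NPC and MEF overlapped. Gclm fell by 1.01 in NPC and by 1.002 in MEF (limma adjusted p = 0.000344 and 0.00075), but neither call held under every alternative. The first ended without NPC 1 (-0.84), ES 1 or ES 2 and with its probe sets averaged (-0.74). It also ended with array weights (-0.92) and a pseudocount of 64 (-0.91). The second ended under median centring (-0.52), the deposited scaling (-0.19), trimmed mean scaling (-0.98) and a pseudocount of 64 (-0.91). Leaving out ES 1, ES 2, NPC 2 or MEF 1 ended it too.

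Gclc, the catalytic subunit of the ligase, was not called, at 9.16 ± 0.10 in ES cells, 8.93 ± 0.08 in NPC and 8.53 ± 0.06 in MEF. Gss, the synthetase, was at 7.30 ± 0.12 in ES cells, 6.78 ± 0.38 in NPC and 7.96 ± 0.12 in MEF. It was 2.28-fold higher in MEF than in NPC (limma adjusted p = 0.00174), a call that ended with a pseudocount of 64 (0.91). Gsr, which returns oxidised glutathione to its reduced form, was at 9.24 ± 0.08 in ES cells, 8.21 ± 0.04 in NPC and 8.86 ± 0.21 in MEF. It fell by 1.03 in NPC (adjusted p = 2.62e-05). The call ended with its probe sets averaged (-0.97), with a pseudocount of 64 (-0.92) and without ES 2 (-0.98).

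Hmox1, the inducible haem oxygenase, separated the NPC arrays. It was at 8.65 on NPC 1 against 7.01 on NPC 2 and 7.18 on NPC 3, and at 7.32, 7.74 and 7.34 on ES arrays and 8.71 and 8.69 on MEF arrays. NPC 1 was thus level with MEF, and the other NPC arrays lay below every ES array. Hmox1 was 2.35-fold higher in MEF than in ES cells (limma adjusted p = 0.0374), a call that ended without any single ES or MEF array. The fit uses 1 error for all 3 groups, and without NPC 1 this log2 difference was 1.24 (limma adjusted p = 2.66e-05). The Hmox1 difference of 1.09 between MEF and NPC did not pass (adjusted p = 0.0691), and without NPC 1 it was 1.62 (adjusted p = 1.11e-05). With all arrays kept, it passed under median centring (1.62), at the deposited scaling (1.97) and with array weights (1.46). Between NPC and ES cells the Hmox1 value was 0.14 with all arrays and -0.38 without NPC 1. NPC 1 stood apart on this gene, so leaving it out also removes the spread of Hmox1. The adjusted p-values without NPC 1 are small by that choice and are no separate support.

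Macrophages express Hmox1 strongly, and macrophage markers were higher in MEF. Of 10 such markers, 7 were called higher and 2 lower in MEF against ES cells, and 9 were higher in MEF than in NPC. Their summed intensity was 1336 and 1338 on MEF arrays, 645 to 712 on ES arrays and 116 to 148 on NPC arrays. The sum on ES arrays was led by the markers called lower in MEF, Laptm5 and Cd68, with ES means of 8.33 and 8.13. The other markers had ES means of 4.12 to 6.13. No marker was under 5 on both MEF arrays, while 5 were under 5 on every ES array and 5 on every NPC array. The part of such cells in the MEF values was not tested, and in bulk RNA fewer cells of a type and less RNA per cell cannot be told apart.

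The antioxidant response element core, TGACNNNGC read on both strands, was searched in the 250 bases before the start of each gene in RefSeq (GRCm38.p6). Of the 34 members, 29 had a promoter entry. The core was found for 7 of these 29 genes, in 7 of their 36 promoter entries (19.4%), and 10.2% of all 32851 entries held it. Among the NRF2 group, the 3 genes with a match were Nfe2l2, Gclm and Txnrd1, and each of them fell in NPC. These 3 calls lay near the minimum (-1.04, -1.01 and -1.12), and each ended when some single array was left out. Srxn1, with the largest fall of the group in NPC (-2.47), had an entry without a match. Gsr, which also fell, had no entry, and neither had Hmox1 and Gclc. The sequences of the 3 genes with a match follow, with the match in capitals, because they show where the core lies in genes called lower in NPC. Positions are chr2:75704664-75704913 on the minus strand for Nfe2l2, chr3:122245307-122245556 on the plus strand for Gclm, and chr10:82858956-82859205 on the plus strand for Txnrd1, which has 3 entries and a match in this one.
Nfe2l2: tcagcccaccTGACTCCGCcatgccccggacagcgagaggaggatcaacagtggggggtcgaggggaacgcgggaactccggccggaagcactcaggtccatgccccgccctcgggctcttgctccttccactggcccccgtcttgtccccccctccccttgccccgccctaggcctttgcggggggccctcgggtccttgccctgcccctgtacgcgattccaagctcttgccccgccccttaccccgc
Gclm: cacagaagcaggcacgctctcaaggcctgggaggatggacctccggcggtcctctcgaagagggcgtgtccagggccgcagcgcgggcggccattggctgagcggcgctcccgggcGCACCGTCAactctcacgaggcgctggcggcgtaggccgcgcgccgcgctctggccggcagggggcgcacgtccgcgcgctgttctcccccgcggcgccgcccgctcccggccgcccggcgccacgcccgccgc
Txnrd1: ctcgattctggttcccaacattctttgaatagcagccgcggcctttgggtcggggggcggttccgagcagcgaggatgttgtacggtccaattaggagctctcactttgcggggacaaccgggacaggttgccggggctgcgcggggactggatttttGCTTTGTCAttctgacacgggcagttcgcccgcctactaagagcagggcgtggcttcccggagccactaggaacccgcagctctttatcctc
The match began 240 bases before the start of Nfe2l2, 134 before that of Gclm and 92 before that of Txnrd1. The other 4 genes with the core were Sod1, Gstm5, Mgst1 and Mt2, of which Gstm5 and Sod1 were not called in NPC, Mgst1 rose and Mt2 fell. A match is a run of letters in this window and says nothing of binding in these cells.

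Thioredoxin and the measured peroxiredoxins, which use thioredoxin to remove peroxides, gave no call among 4 genes in any comparison. All 4 still had an adjusted p under 0.05 between NPC and ES cells, as did 46.9% of all genes. Txn1, the cytosolic thioredoxin, was at 12.70 ± 0.01 in ES cells, 12.89 ± 0.12 in NPC and 13.03 ± 0.01 in MEF. Prdx3, the mitochondrial peroxiredoxin, had the largest differences from ES cells of these genes, at 9.12 ± 0.04 in ES cells, 10.00 ± 0.29 in NPC and 9.93 ± 0.01 in MEF. The 3 ES arrays of Prdx3 lay below all other arrays, with differences of 0.89 in NPC and 0.81 in MEF that were under the minimum. Prdx4, the peroxiredoxin of the secretory pathway, was at 10.34 ± 0.11, 10.90 ± 0.19 and 11.12 ± 0.05 in the same order. Prdx2, a cytosolic peroxiredoxin, was highest in NPC, at 12.18 ± 0.06 against 11.69 ± 0.08 in ES cells and 11.53 in MEF (both arrays). At the deposited scaling Prdx3 and Prdx4 differed from ES cells by 1.61 and 1.56 in MEF and were called.

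Of the superoxide dismutases and catalase, Sod2 alone was called. Sod2, the mitochondrial manganese enzyme, was at 11.02, 11.03 and 11.04 on ES arrays, at 10.22, 10.60 and 10.53 on NPC arrays, while MEF gave 9.43 and 9.48. The 3 groups were separate, with ES highest and MEF lowest. Sod2 was 2.98-fold lower in MEF than in ES cells (limma adjusted p = 4.18e-06), and -0.79 and not called at the deposited scaling. Between MEF and NPC its difference was -0.996, just under the minimum, and it was called without NPC 1 (-1.12). Sod1, the cytosolic copper-zinc enzyme, was at 11.70 ± 0.06 in ES cells, 11.26 ± 0.46 in NPC and 10.91 ± 0.15 in MEF, with NPC 1 at 10.75 below NPC 2 at 11.64 and NPC 3 at 11.38. Cat, the catalase of peroxisomes, was at 10.06 ± 0.15, 9.83 ± 0.07 and 10.14 ± 0.13 in ES cells, NPC and MEF. Sod3, the extracellular enzyme, was at 4.13 to 5.33 over the 8 arrays, near the floor.

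All 5 glutathione peroxidases were called between NPC and ES cells, 4 lower and Gpx8 higher, while 22.9% of all genes were called. Gpx7, a peroxidase of the endoplasmic reticulum, was at 8.64, 8.77 and 8.69 on ES arrays, at 4.13, 4.14 and 4.26 on NPC arrays, while MEF gave 9.13 and 9.11. It was therefore at the floor in NPC and far above it in both other cell types. Gpx7 fell 22.9-fold in NPC (limma adjusted p = 7e-09) and was 30.7-fold higher in MEF than in NPC (adjusted p = 1.41e-08). Gpx3, the secreted plasma enzyme, had the same shape, at 7.68, 7.89 and 7.64 on ES arrays, 4.81, 4.31 and 4.20 on NPC arrays and 8.03 and 8.01 on MEF arrays. Gpx3 fell 9.82-fold in NPC (adjusted p = 7.57e-07) and was 11.9-fold higher in MEF than in NPC (adjusted p = 1.52e-06). Neither gene was called between MEF and ES cells.

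Gpx8, the membrane-bound relative of Gpx7 in the endoplasmic reticulum, took another order. It was at 6.78, 6.88 and 6.71 on ES arrays, at 8.17, 8.24 and 8.04 on NPC arrays, while MEF gave 10.36 and 10.37. Each group was separate from the others and MEF was highest. Gpx8 rose 2.57-fold in NPC (limma adjusted p = 3.31e-06) and 11.9-fold in MEF (adjusted p = 3.45e-08) from ES cells.

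Gpx1, the abundant cytosolic enzyme, was at 11.54, 11.50 and 11.53 on ES arrays, at 10.89, 9.50 and 9.46 on NPC arrays, while MEF gave 11.88 and 11.87. All NPC arrays were below all others, and NPC 1 was 1.41 above the mean of the other NPC arrays. Gpx1 fell 2.97-fold in NPC (limma adjusted p = 0.00292), and 4.14-fold without NPC 1. Gpx4, which reduces lipid peroxides in membranes, was highest in ES cells, at 12.78 ± 0.03 against 10.89 ± 0.28 in NPC and 11.35 ± 0.01 in MEF. It fell 3.72-fold in NPC (adjusted p = 1.94e-06) and 2.7-fold in MEF (adjusted p = 2.49e-05), and the MEF call ended at the deposited scaling (-0.75).

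**Figure D3:**
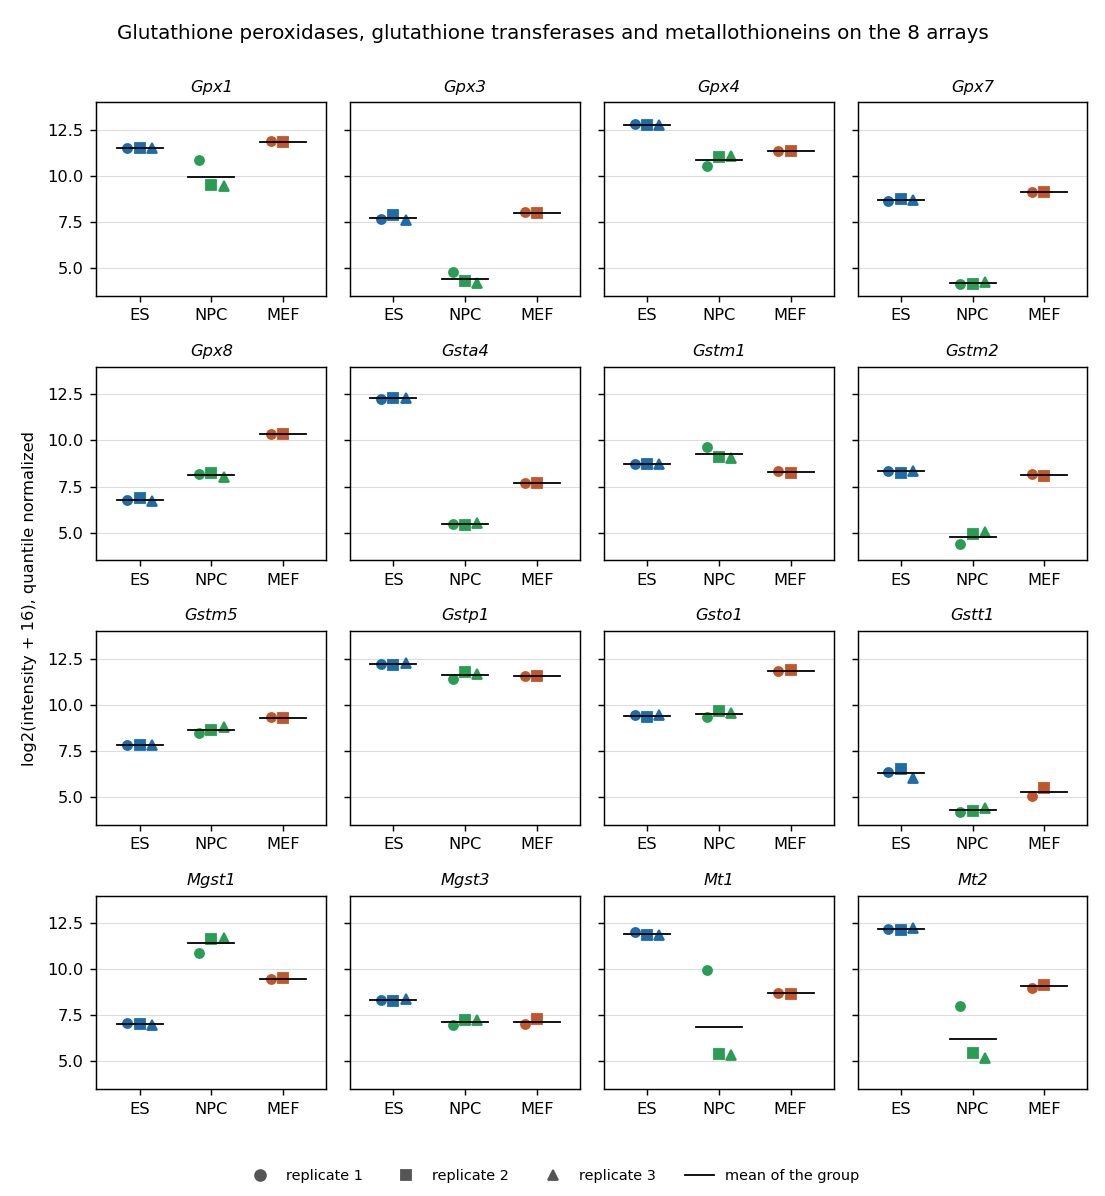
Log2(intensity + 16) of 5 glutathione peroxidases, 9 glutathione transferases and 2 metallothioneins on each array, by cell type, with shapes for replicate numbers and lines for group means. Gpx3, Gpx7 and Gstm2 are near the floor of 4 in NPC alone, Gsta4, Mt1 and Mt2 are highest in ES cells, and NPC 1 lies above the other NPC arrays for Mt1, Mt2 and Gpx1. Heights are compared within a gene only.

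Glutathione transferases join glutathione to reactive compounds, and their members changed in opposite directions between cell types. Gsta4, the enzyme for 4-hydroxynonenal from lipid peroxidation, gave the largest difference of the 34 genes with all arrays; without NPC 1 the fold was 118 for both Gsta4 and Mt2 between NPC and ES cells. It was at 12.28, 12.29 and 12.29 on ES arrays, at 5.47, 5.39 and 5.50 on NPC arrays, while MEF gave 7.71 and 7.69. The arrays of each group were nearly identical and far from the other groups. Gsta4 fell 114-fold in NPC (limma adjusted p = 2.6e-10) and 24-fold in MEF (adjusted p = 6.54e-09), and MEF was 4.74-fold above NPC (adjusted p = 1.57e-07).

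Mgst1, a membrane-bound transferase with peroxidase activity, went the other way. Its brightest probe set was at 7.08, 7.02 and 6.98 on ES arrays, at 10.91, 11.67 and 11.69 on NPC arrays, while MEF gave 9.46 and 9.51. NPC was highest without overlap. Mgst1 rose 21.1-fold in NPC (limma adjusted p = 1.67e-07) and 5.5-fold in MEF (adjusted p = 1.23e-05) from ES cells. The second probe set of Mgst1 was near the floor in every group, at means of 4.38, 4.35 and 4.24, so these calls rest on 1 probe set. Mgst3, a relative of Mgst1, fell 2.24-fold in both NPC and MEF from ES cells (limma adjusted p = 5.11e-05 and 0.000107). Its calls ended when both probe sets were averaged (-0.60 and -0.56), and its second probe set had group means of 4.45 to 4.54. Both calls also ended with a pseudocount of 64, and the MEF call under median centring (-0.72) and the deposited scaling (-0.40).

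The mu class genes differed among themselves. Gstm2 was at 8.37, 8.26 and 8.35 on ES arrays, at 4.39, 4.93 and 5.05 on NPC arrays, while MEF gave 8.21 and 8.08. NPC alone was low, 11.6-fold below ES cells (limma adjusted p = 4.27e-07) and 10.2-fold below MEF (adjusted p = 2e-06). Gstm1 was highest in NPC instead, at 9.28 ± 0.32 against 8.73 ± 0.02 in ES cells and 8.31 ± 0.07 in MEF, and was not called. Its difference of -0.97 between MEF and NPC was just under the minimum, and its 3 other probe sets gave -1.17, 0.29 and 0.09. Gstm5 was at 7.83 ± 0.02 in ES cells, 8.63 ± 0.17 in NPC and 9.32 ± 0.04 in MEF, and it rose 2.79-fold in MEF from ES cells (adjusted p = 6.66e-06). The mu class is a cluster of similar genes, and the probe set of Gstm1 is of a type (_x_at) whose probes can bind other transcripts.

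Gsto1, an omega class enzyme that reduces dehydroascorbate, was a MEF gene in this group. It was at 9.42 ± 0.07 in ES cells, 9.52 ± 0.16 in NPC and 11.86 ± 0.01 in MEF, 5.46-fold above ES cells (limma adjusted p = 2.08e-07) and 5.06-fold above NPC (adjusted p = 2.82e-07). Gstt1, of the theta class, was at 6.28 ± 0.24 in ES cells, 4.28 ± 0.11 in NPC and 5.26 ± 0.29 in MEF, and fell 4.02-fold in NPC (adjusted p = 2.12e-05) and 2.03-fold in MEF (adjusted p = 0.00295). With a pseudocount of 64 neither call held (-0.91 in NPC and -0.55 in MEF). The MEF call also ended with median centring (-0.95), at the deposited scaling (-0.63) and without ES 1, ES 2 or MEF 1. Between MEF and NPC the Gstt1 difference of 0.98 was just under the minimum. Gstp1, the pi class enzyme, was bright in every group and not called, at 12.23 ± 0.05, 11.62 ± 0.19 and 11.59 ± 0.01 in ES cells, NPC and MEF.

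Metallothioneins were highest in ES cells and differed between NPC arrays more than any other member. Mt1 was at 12.00, 11.85 and 11.85 on ES arrays, at 9.96, 5.39 and 5.34 on NPC arrays, while MEF gave 8.73 and 8.65. Mt2 was at 12.21, 12.15 and 12.22 on ES arrays, at 7.99, 5.48 and 5.21 on NPC arrays, while MEF gave 8.98 and 9.16. Both genes were therefore near the floor on NPC 2 and NPC 3, whereas NPC 1 was above MEF for Mt1 and below MEF for Mt2. As deposited, the intensity of Mt1 was 818 on NPC 1 and 21.3 and 22.0 on NPC 2 and NPC 3.

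From ES cells to NPC, Mt1 fell 32.1-fold (limma adjusted p = 0.00315) and Mt2 fell 62.5-fold (adjusted p = 3.54e-05). Without NPC 1 the falls were 94.9-fold and 118-fold. In MEF, Mt1 was 9.26-fold lower than in ES cells (adjusted p = 0.0477) and Mt2 8.71-fold lower (adjusted p = 0.00401). The MEF call of Mt1 ended at the deposited scaling (-2.40), without a variance trend (adjusted p = 0.063), with a pseudocount of 1 and without any single ES or MEF array. All 3 groups share an error in the fit, and without NPC 1 the same difference was -3.22 (limma adjusted p = 7.25e-10). Between MEF and NPC, Mt2 was 7.18-fold higher in MEF (adjusted p = 0.00845), a call that ended without MEF 2 (adjusted p = 0.0599), while the log2 difference of 1.79 of Mt1 did not pass (adjusted p = 0.274). Without NPC 1 these were 13.5-fold for Mt2 and 10.2-fold for Mt1 (limma adjusted p = 1.07e-09). NPC 1 stood apart on these genes, so leaving it out also removes their spread. The adjusted p-values without NPC 1 are small by that choice and are no separate support. With all arrays kept, the Mt1 difference passed at the deposited scaling (2.61) and with array weights (2.97). The other Mt1 probe set gave -0.033 for it. Mt1 rests on a probe set shared between transcripts (_s_at), and its other probe set fell by 1.14 in NPC and 1.17 in MEF at levels near the floor.

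Mt1 and Mt2 are neighbours in the genome, and they are shown as the pair with the widest spread between arrays of a group. The metal response element core was searched as TGCACNC and TGCGCNC on both strands of the same window. It occurred in 21.4% of all promoter entries at least once and in 0.77% at least 3 times. Mt1 held 1 match and Mt2 held 3, which are in capitals. Positions are chr8:94178839-94179088 for Mt1 and chr8:94172368-94172617 for Mt2, both on the plus strand of GRCm38.p6.
Mt1: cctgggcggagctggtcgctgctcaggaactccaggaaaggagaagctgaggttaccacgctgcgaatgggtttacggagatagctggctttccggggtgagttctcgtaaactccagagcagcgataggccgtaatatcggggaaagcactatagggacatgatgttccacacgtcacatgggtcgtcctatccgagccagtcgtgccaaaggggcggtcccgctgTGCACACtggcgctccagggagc
Mt2: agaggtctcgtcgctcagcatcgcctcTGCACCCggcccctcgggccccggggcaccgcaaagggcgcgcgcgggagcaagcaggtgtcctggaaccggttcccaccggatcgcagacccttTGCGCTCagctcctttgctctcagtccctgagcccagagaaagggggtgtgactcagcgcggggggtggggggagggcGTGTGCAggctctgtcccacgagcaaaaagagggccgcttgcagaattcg
The match of Mt1 began 23 bases before its RefSeq start, and those of Mt2 began 223, 128 and 50 bases before. The window is set by the start that RefSeq lists, and other starts were not searched.

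**Figure D4:**
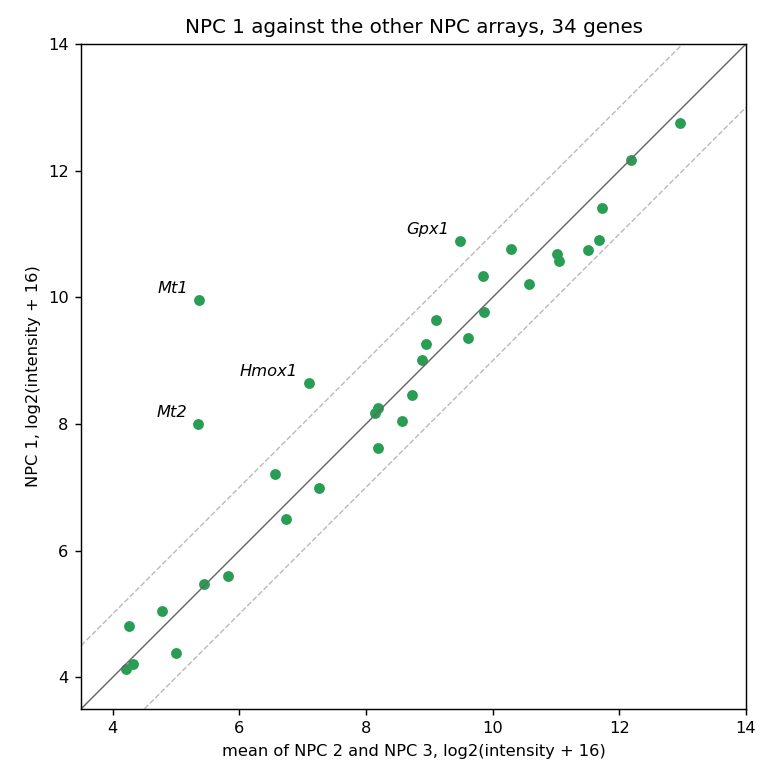
Log2(intensity + 16) of the 34 genes on NPC 1 (vertical) against the mean of NPC 2 and NPC 3 (horizontal). The solid line marks equal values and the dashed lines a difference of 1. Mt1, Mt2, Hmox1 and Gpx1 lie above the upper dashed line and no gene lies below the lower one.

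Of the 34 members, 4 were higher on NPC 1 by at least 1 than on the mean of the other NPC arrays, by 4.59 for Mt1, 2.65 for Mt2, 1.56 for Hmox1 and 1.41 for Gpx1. None was lower by that much, and Mgst1 (-0.77) and Sod1 (-0.76) were the lowest. These 4 are 11.8% of the members, against 4.51% of all genes that differed by that much on NPC 1 in either direction. The mean of the ES markers was 5.94 on NPC 1 and 5.80 and 5.96 on the others, and the mean of the fibroblast markers was 5.25 against 5.17 and 5.04. Summed intensities, which the brightest markers lead, were higher on NPC 1 for several lists: 17027 against 12113 and 11002 for neural precursor markers, 1275 against 898 and 751 for astrocyte markers, and 236 against 165 and 134 for fibroblast markers. Macrophage markers summed to 148 against 143 and 116. The sum of the ES list, 3148 against 1888 and 1727, was carried by Sox2 (11.61 on NPC 1, 10.87 and 10.72 on the others), which is also on the neural precursor list. Pou5f1, Nanog, Zfp42 and Esrrb were at 4.04 to 5.63 on all NPC arrays. The part of other cells in the values of NPC 1 was not tested. Without NPC 1 the counts of called members were 16 between NPC and ES cells, where Gclm was no longer called, 14 between MEF and ES cells, and 16 between MEF and NPC, where Hmox1, Sod2 and Mt1 were added.

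Other genes of the same pathways were read from a list of 104, of which 97 were measured. In NPC 14 of the 97 rose and 20 fell from ES cells, 35.1% against 22.9% of all genes. In MEF 17 rose and 19 fell from ES cells (37.1% against 25.0%). With median centring 32 were higher and 17 lower, and 65.1% of the calls over all genes were higher there. Between MEF and NPC, 19 were higher and 14 lower (34.02% against 18.5%). At the deposited scaling 39 were higher and 4 lower, and 87.6% of the calls over all genes were higher there.

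Of 22 genes for glutathione breakdown, other peroxidases and other transferases, 9 were lower and 2 higher in NPC, and 8 were lower and none higher in MEF, against 12.9% and 12.8% of all genes called lower. Calls in either direction are 50% and 36.4% of the list, against 22.9% and 25.0% of all genes. Gstt2, a theta class transferase beside Gstt1, fell 17.8-fold in NPC, from 8.28 to 8.63 on ES arrays to 4.05 to 4.78 on NPC arrays, and 15.9-fold in MEF. Ggct, which cleaves gamma-glutamyl peptides, was 7.78-fold lower in MEF on its brightest probe set (_a_at). With _x_at, _s_at and _a_at probe sets left out, Ggct was read from a dimmer probe set, at 0.0018 and not called. Of 26 NRF2 partners and further targets, 2 were higher and 2 lower in NPC, or 15.4% against 22.9% of all genes, and 8 rose and 4 fell in MEF from ES cells, or 46.2% against 25.0%. The difference between these shares was not tested. Ugdh, of UDP-glucuronate synthesis, was 4.51-fold higher in MEF than in ES cells, and Abcc1, which exports glutathione conjugates, was 7.89-fold higher in MEF than in NPC.

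Of 18 thioredoxin and glutaredoxin partners, 4 were higher and 3 lower in NPC (38.9% against 22.9% of all genes), and 2 were higher and 2 lower in MEF (22.2% against 25.0%). Txnip, which binds and inhibits thioredoxin, was at 11.81 to 11.91 on ES arrays, at 7.88, 6.001 and 5.67 on NPC arrays, while MEF gave 8.59 and 8.58. NPC 1 again lay above the other NPC arrays, and Txnip fell 41-fold in NPC and 9.74-fold in MEF. Msrb3, a methionine sulfoxide reductase, was 24.5-fold higher in MEF than in ES cells and 10.5-fold higher than in NPC. Sesn3, a sestrin, was 8.1-fold lower in MEF than in NPC.

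Of 11 other reactive oxygen genes, 2 were higher and 2 lower in NPC, and 3 rose and 1 fell in MEF from ES cells. These are 36.4% of the list in each, against 22.9% and 25.0% of all genes. Cyba, the membrane subunit shared by NADPH oxidases, was at 9.79 to 9.87 on ES arrays, 4.10 to 4.19 on NPC arrays and 10.48 and 10.38 on MEF arrays. It was at the floor in NPC alone, 51.2-fold below ES cells and 77.7-fold below MEF. Pon2, a paraoxonase inside the cell, was 16.6-fold higher in NPC and 10.8-fold higher in MEF than in ES cells. Of 10 metal handling genes, 1 was higher and 2 lower in NPC (30% against 22.9% of all genes). In MEF 1 of these rose and 1 fell from ES cells (20% against 25.0%). Cp, the copper-carrying ceruloplasmin, was 13-fold higher in NPC than in ES cells and 6.36-fold lower in MEF than in NPC. Of 10 genes of selenoprotein synthesis and selenoproteins, 3 were higher and 2 lower in NPC (50% against 22.9% of all genes). In MEF 3 of these rose and 3 fell from ES cells (60% against 25.0%). Selenop, which carries selenium between cells, was 11.1-fold higher in NPC than in ES cells and 10.2-fold lower in MEF than in NPC.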

How the data were processed

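The deposited values were linear probe set intensities, 1 per probe set and array, made with GCOS 1.4 per the submitters' processing notes. The algorithm, background and scaling settings are not given in the sources used here, and no detection calls were used. Of 45101 probe sets, 64 controls were left out. Of the 45037 others, 34945 were listed with 1 gene, 932 with several and 9160 with none, by a platform annotation whose symbols were updated through RefSeq gene IDs. Values were log2 transformed after adding 16, quantile normalized and fitted over all 8 arrays in R 4.3.3 with limma 3.58.1 (variance trend, no covariates). P-values were adjusted over all 18193 genes. The procedure was tested on simulated data. Every measured member is named. Of the other pathway genes, up to 3 called genes in each direction and comparison are named, those with the largest difference among genes whose arrays do not overlap. The members, lists and tests were chosen with earlier results of these data known. The 21 alternatives are given at the end, and those for single pathway genes were added after seeing the data.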

Additional observations from a re-analysis of the deposited data

How the results depend on the processing

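Of the 44 called differences of members, 24 were called under all 21 alternatives, 2 (Gpx4 between NPC and ES cells and Txnrd1 between MEF and NPC) were called under the 20 that gave them a value, and 18 lost the call under at least 1, most often with a pseudocount of 64 (9), at the deposited scaling (6) and without ES 2 (6). Leaving out _x_at, _s_at and _a_at probe sets turned Mgst1 to -0.034 in NPC and -0.14 in MEF against ES cells. It turned Mt1 to -0.033 between MEF and NPC, and Ggct to 0.0018 in MEF against ES cells. These genes were then read from dimmer probe sets, and Gpx4 and Txnrd1 were left without a value. With the adjusted p alone, 27, 26 and 23 members and 59, 63 and 54 other pathway genes were called between NPC and ES cells, MEF and ES cells, and MEF and NPC, against 17, 14 and 13 members and 34, 36 and 33 pathway genes. The deposited scaling gave 22 members between MEF and NPC, and a pseudocount of 64 gave 22 pathway genes between MEF and ES cells. Over all genes, the counts of 4173, 4554 and 3359 became 2638, 2948 and 2110 with a pseudocount of 64 and 8530, 8447 and 7145 with the adjusted p alone, and the last was 5101 at the deposited scaling. Leaving out single arrays gave 15 to 17, 10 to 14 and 13 to 16 members. Replicate numbers are not stated to pair the arrays: deviations of same-numbered arrays correlated at -0.02 to 0.02, and with the replicate number as a block 17, 12 and 14 members and 34, 35 and 34 pathway genes were called; the calls of Hmox1 (1.09, adjusted p = 0.0778) and Gclm between MEF and ES cells ended. Of the 6 ES and NPC arrays, 0 correlated best with the array of its own number. The number of arrays limits the precision, and with no detection calls a value near the floor is not known to be above background.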

Other observations

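Further genes of these pathways, chosen after their values were seen, are given as values. Slc7a11, the cystine importer that supplies glutathione synthesis, was at 4.28, 4.80 and 4.52 on ES arrays, at 6.49, 5.60 and 5.60 on NPC arrays, while MEF gave 6.53 and 6.45. It rose 2.57-fold in NPC and 3.89-fold in MEF from ES cells (limma), calls that ended with a pseudocount of 64. Mt4, a metallothionein near Mt1 and Mt2, lay between 6.07 and 6.13 in ES cells and between 4.09 and 4.71 elsewhere, and fell 3.25-fold in NPC and 3.95-fold in MEF, calls that also ended with a pseudocount of 64 (-0.75 and -0.84). Mt3, the brain metallothionein, was at 4.31 to 5.87 over the 8 arrays and was not called. Sod1 had 5 probe sets: the brightest differed by -0.44 between NPC and ES cells, and another, at 7.16 in ES cells and 8.26 in NPC, differed by 1.10 in the opposite direction.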
